A study of Mus musculus with 6 samples.

Results

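The 10 Kruppel-like factor genes Klf2, Klf3, Klf4, Klf6, Klf7, Klf9, Klf10, Klf11, Klf13 and Klf15 were examined in hypertrophic mouse hearts. They were chosen by gene symbol among the 54532 genes of the deposited expression table, and each symbol matched 1 gene. The study compared 3 myocardium samples given adeno-associated virus 9 carrying EGFP (the controls) with 3 samples given the same serotype carrying anti-miR-199a tough decoys (TuDs), RNA hairpins built to sequester a microRNA. All 6 samples came from wild-type C57BL/6 mice of 18 weeks. The labels do not state how hypertrophy was induced, which promoter drove the decoys, the sex of the mice, the collection hour, or that the samples are separate animals, so p-values measure the spread between samples, which may be technical.

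Kruppel-like factors (KLFs) are transcription factors that bind GC-rich and CACCC sequences through zinc fingers at the end of the protein. KLF2 and KLF4 are known as flow-responsive regulators in endothelium, and their transcription is driven by the kinases MEK5 and ERK5 acting through MEF2 factors. KLF15 is known in cardiomyocytes as a regulator of lipid and amino acid use and as a brake on hypertrophic growth, and KLF9, KLF13 and KLF15 are induced by glucocorticoids. KLF10 and KLF11 are induced by TGF-beta, and transcripts of several family members follow the circadian clock.

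The microRNA that the decoys target has 2 mature arms, shown here because the seed (bases 2 to 8, in capitals) sets which messenger RNAs it can pair with. Sequences are from RefSeq (GRCm38.p6), 5′ to 3′.
mmu-miR-199a-5p: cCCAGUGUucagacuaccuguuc
mmu-miR-199a-3p: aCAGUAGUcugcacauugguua

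Matches of 7 or 8 bases to either arm were looked for in the longest annotated 3' UTR of each gene (GENCODE M21, GRCm38). A 7-base match paired with bases 2 to 8, or with bases 2 to 7 followed by an A opposite base 1. An 8-base match paired with bases 2 to 8 and held that A. The A counts in the length but does not pair with base 1 of either arm. Such matches were found in 3 of the 10 KLF genes, against 34.1% of the 9552 tested genes with such a UTR. Klf13 held 2 matches to each arm, Klf11 held 1 match to each arm, and Klf7 held 1 match to the 3p arm. The UTRs of Klf2, Klf3, Klf4, Klf6, Klf9, Klf10 and Klf15 held no such match in these letters. The median UTR length was 2718.5 bases in the KLF genes and 1263 bases in the tested genes, so the KLF genes offered more sequence in which to find a match. The 8-base matches of Klf13 and the single match of Klf7 are shown with the match in capitals, its final A included. The Klf7 match pairs with bases 2 to 7 only. Each is on the minus strand, at chr7:63886884-63886903, chr7:63887431-63887450 and chr1:64030495-64030514.
Klf13, match to the 5p arm: cattgcACACTGGAgaagcc
Klf13, match to the 3p arm: cagcttACTACTGAtacagg
Klf7, match to the 3p arm: aaacaggCTACTGAggtata

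1 TuD library stood apart from its group, and in Y-linked transcripts it resembled the controls. The summed FPKM of 4 Y-linked genes was 12.5 in TuD replicate 3 and 8.32 to 9.59 in the controls, against 0.0254 and 0.00711 in TuD replicates 1 and 2. The groups were thus not balanced for Y-linked transcripts, and a difference between the groups cannot be fully told apart from a difference in these. The summed level of the atrial markers Myl7, Myl4 and Sln, as FPKM after scaling between libraries, was 114 in TuD replicate 3, 2.13 and 2.51 in TuD replicates 1 and 2, and 0.608 to 0.717 in the controls, where Sln had no reads. Of these 3 markers, 1 was tested and did not pass the test. It passed the filter through the TuD libraries alone, so its call as higher after rescaling to TPM (log2 fold change 3.48) is not read as support. Nppa, which is not among these 3 markers, was lowest in TuD replicate 3. On the same scale it measured 99.3 there, 211 and 152 in TuD replicates 1 and 2, and 120 to 368 in the controls.

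Levels are given as normalised FPKM, the authors' fragments per kilobase of gene scaled to library size, after division by a size factor for each library, so they are per length and can be compared between genes. Klf2 had the highest level of the 10 genes in both groups, at 93.5 ± 8.90 in the controls (SD, n = 3). Klf15 (23.9 ± 3.90) and Klf4 (19.98 ± 0.682) followed, and their ranges over the 3 controls overlapped. Klf9 stood at 14.4 ± 2.63, below every control value of Klf4. Klf6 (9.64 ± 2.11) and Klf13 (8.68 ± 0.766) overlapped with each other. Klf10 (2.98 ± 0.680), Klf3 (2.37 ± 0.194) and Klf11 (2.32 ± 0.458) each overlapped with the neighbour in this order, and Klf7 was lowest at 1.15 ± 0.178. In the TuD group Klf2 again came first and Klf7 last, the ranges of Klf4 and Klf15 overlapped, and so did those of Klf6 with Klf9, Klf9 with Klf13 and Klf3 with Klf11. Klf2 alone made up 52.2 ± 2.42% of the summed control level of the 10 genes and 45.9 ± 4.36% of their TuD level (SD, n = 3).

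**Figure D1:**
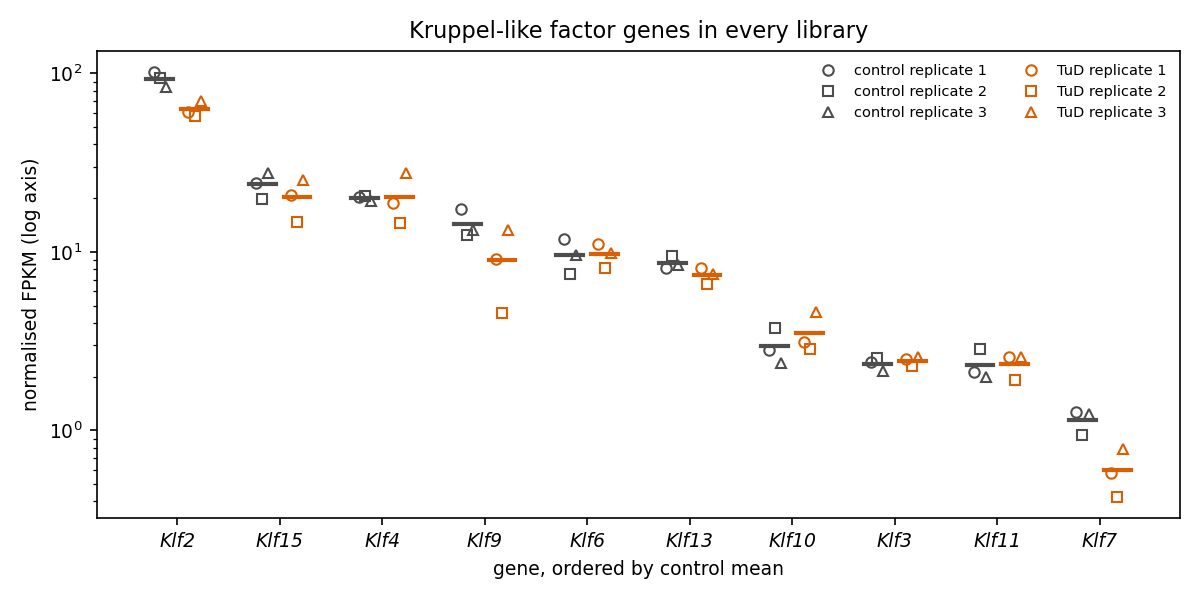
Normalised FPKM (log axis) of the 10 Kruppel-like factor genes in each library, ordered by control mean. Grey symbols are the 3 controls, orange symbols the 3 TuD libraries, and bars the group means. The groups are apart for Klf2 and Klf7 and overlap for the other 8 genes.

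The comparison addressed how messenger RNA levels in these hearts relate to the decoys. Of the 10 genes, 9 passed the filter on low values (an FPKM of at least 1 in at least 3 libraries), and Klf7 did not. Klf2 was lower in the TuD group, and the other 8 tested genes did not pass the test (limma, adjusted p under 0.05 over all 10460 tested genes). That is 1 of 9, against 29.1% of all tested genes called in either direction and 14.2% called lower. No tested KLF gene was called higher, either by limma or by limma-voom on recovered reads, against 14.8% of all tested genes called higher by limma. At an unadjusted p under 0.05, 0 of the 9 were higher, against 2263 of the 10460 tested genes. The groups did not overlap for 1 of the 9, Klf2, against 47.9% of all tested genes. The median log2 fold change of the 9 genes was -0.02, and that of all tested genes was 0.01. Among the other genes that the authors' annotation column labels as C2H2 zinc finger factors, 44 of 167 tested genes were called, 18 higher and 26 lower. Fewer cells of a type and less RNA per cell cannot be told apart in these bulk samples.

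Klf2, the endothelial flow-responsive factor (ENSMUSG00000055148, chr8:72319033-72321656 in mm10, plus strand), measured 102, 94.3 and 84.2 normalised FPKM in control replicates 1, 2 and 3. It measured 60.6, 57.9 and 70.4 in TuD replicates 1, 2 and 3. All 3 TuD values lay below all 3 controls, which was also the case for 24.4% of the tested genes. Klf2 fell from 93.5 ± 8.90 to 63.0 ± 6.53 (SD, n = 3 per group), a log2 fold change of -0.57 ± 0.12 (SE) with a 95% interval of -0.84 to -0.29 (limma adjusted p = 0.0119). Each library held 1547 to 3576 Klf2 reads. The call held without any 1 of the 6 libraries (largest adjusted p = 0.0454, without control replicate 2). It ended with a covariate for Y-linked transcripts, which are near 0 in TuD replicates 1 and 2 and in no control (-0.40, adjusted p = 0.111); that estimate rests on TuD replicate 3 alone.

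Of 8 markers of endothelium, the cell type in which KLF2 is best known, 0 fell by limma, against 14.2% of all tested genes. At an unadjusted p under 0.05, 0 were lower and 3 higher, and limma-voom called 0 lower and 2 higher. Egfl7, a secreted endothelial protein, rose (+0.85, limma adjusted p = 0.00823; covariate-adjusted, 0.0659) and 7 did not pass. After rescaling to TPM, 3 of the 8 markers were called lower and 1 higher, where 40.2% of all tested genes were called lower. The summed level of the 8 markers was 200.2 to 243 normalised FPKM over the controls and 198 to 285 over the TuD libraries, so the groups overlapped. Klf2 as a percent of that sum was 50.9, 39.7 and 34.7 in control replicates 1, 2 and 3 and 23.9, 20.4 and 35.6 in TuD replicates 1, 2 and 3. The value of TuD replicate 3 lay within the controls, with p = 0.2 in a two-sided exact permutation test whose smallest possible value is 0.1. Of the 7 tested genes reported downstream of KLF2 and KLF4 in endothelium, 6 did not pass, and the result of the other is not reported here. Among the 6, S1pr1 had every TuD value above every control, with means of 42.9 ± 1.39 for TuD and 35.2 ± 4.73 for control (+0.29, limma adjusted p = 0.0935). Vcam1 had a negative estimate and overlapping groups (-0.33, adjusted p = 0.168). Nos3 and Thbd were also among the 6. Nos3, the endothelial nitric oxide synthase that KLF2 induces, measured 10.2 ± 0.551 and 11.8 ± 1.55 (limma adjusted p = 0.270), and Thbd, thrombomodulin, 29.1 ± 8.23 and 31.8 ± 1.57 (adjusted p = 0.540).

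Of the 9 tested genes that act upstream of KLF2 and KLF4, 2 fell, 2 rose and 5 did not pass. Their reported effects on KLF2 and KLF4 do not all point the same way, so the counts are not read as a change of input. Over all tested genes, 14.2% were called lower and 14.8% higher. Mef2d, a MEF2 factor, fell from 35.3 ± 3.35 to 18.8 ± 1.41 normalised FPKM (-0.89 ± 0.11 SE, limma adjusted p = 0.00258), and its call held under all 19 alternatives tried. Map3k3, the kinase that activates MEK5, went from 13.3 ± 1.10 down to 8.23 ± 0.677 (-0.66, adjusted p = 0.00581; the covariate gave 0.0513). Mef2a (+0.54, adjusted p = 0.0354) and Pdcd10, a member of the CCM complex (+0.52, adjusted p = 0.0294), rose, but both calls ended without a filter (adjusted p = 0.0944 and 0.0857) and after rescaling to TPM (+0.20, adjusted p = 0.403, and +0.21, adjusted p = 0.377). Leaving out single libraries also ended them, with adjusted p of 0.0695 to 0.124 for Mef2a (controls 2 and 3, TuD replicates 1 and 3) and of 0.0581 to 0.102 for Pdcd10 (controls 2 and 3, TuD replicates 2 and 3). With the replicate block, Pdcd10 had an adjusted p of 0.0589. The kinase genes Map2k5 (MEK5) and Mapk7 (ERK5) had log2 fold changes of 0.02 and 0.00.

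The promoter of Klf2 is shown because it holds a MEF2 element (in capitals), a motif looked for after the expression data were seen. It is the stretch upstream of the annotated start in RefSeq (GRCm38.p6), chr8:72318812-72319032, plus strand.
Klf2: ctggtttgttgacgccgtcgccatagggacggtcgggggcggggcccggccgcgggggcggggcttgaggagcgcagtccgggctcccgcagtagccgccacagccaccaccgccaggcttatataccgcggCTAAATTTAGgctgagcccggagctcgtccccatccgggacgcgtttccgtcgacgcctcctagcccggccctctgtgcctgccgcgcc

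The MEF2 element was searched on both strands of the stretch around each start, and it was present in 0.557% of 32851 promoters and in 1 of the 9 KLF promoters with a sequence. The promoter of Klf10 was not among those sequences.

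Klf4, the other flow-responsive member (ENSMUSG00000003032), measured 20.2, 20.5 and 19.2 normalised FPKM in control replicates 1, 2 and 3 and 18.7, 14.5 and 27.8 in TuD replicates 1, 2 and 3. The controls lay close together, with a coefficient of variation of 3.42%, and the TuD libraries fell on both sides of them, with one of 33.6%. Klf4 showed nearly equal means, 19.98 ± 0.682 and 20.3 ± 6.84 (SD, n = 3), with a 95% interval of the log2 fold change from -0.50 to 0.45 (limma adjusted p = 0.939). The highest TuD library exceeded the lowest 1.93-fold, a spread wider than that of 91.7% of tested genes.

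Klf15, the cardiomyocyte member linked to lipid and amino acid use (ENSMUSG00000030087), measured 24.4, 19.8 and 27.5 normalised FPKM in control replicates 1, 2 and 3. In TuD replicates 1, 2 and 3 it measured 20.8, 14.7 and 25.4. The groups overlapped, and TuD replicate 2 alone lay below all controls. The log2 fold change was -0.25 ± 0.20 (SE), with a 95% interval of -0.72 to 0.21 (limma adjusted p = 0.375). After rescaling to TPM, after which the median over tested genes was -0.36, Klf15 was called lower (-0.64, adjusted p = 0.0415), as were 40.2% of all tested genes, and with the Y-linked covariate its estimate was 0.10.

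Genes reported as promoted by KLF15 in heart or muscle numbered 14 tested. Of these 7 fell, against 14.2% of all tested genes called lower (median of the 14 on the log2 scale, -0.39). Among the 7, Bckdha, Pdk4 and Slc25a20 lost the call in 6, 5 and 4 of 19 alternatives. Lpl (0.29), Fabp3 (0.26) and Bckdhb (0.22) had positive estimates and did not pass (limma adjusted p = 0.150, 0.232 and 0.236). Acsl1, a long-chain acyl-CoA synthetase, was at 76.7 ± 3.92 normalised FPKM over the control libraries and 46.1 ± 4.73 in the TuD samples (-0.73, limma adjusted p = 0.00436). Kcnip2, the subunit of the transient outward potassium channel, fell from 62.1 ± 3.74 to 41.2 ± 3.16 (-0.59, adjusted p = 0.00681; the covariate gave 0.0597). Slc2a4, the insulin-responsive glucose transporter (-0.55, adjusted p = 0.00865), and Dbt, a subunit of the branched-chain keto acid dehydrogenase (-0.56, adjusted p = 0.0137), also fell, with adjusted p of 0.0509 and 0.123 with that covariate. With the covariate, which leaves 1 TuD library to carry the estimate, 1 of the 14 was called lower and 1 higher, and without control replicate 2 or 3 there were 4 called lower. Without TuD replicate 3 there were 8. Bcat2, the branched-chain aminotransferase that KLF15 induces, measured 49.3 ± 5.69 and 48.9 ± 1.64 (adjusted p = 0.964).

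Among 8 genes listed as restrained by KLF15, 3 fell and 5 did not pass, against 14.2% of all tested genes called lower. The list does not separate restraint of a transcript from restraint of the protein's activity. The direction of these transcripts is therefore not read against KLF15. The 3 that fell were the cardiac transcription factors Gata4 (51.3 ± 3.14 to 25.4 ± 0.866, 49.4% of the control mean, limma adjusted p = 0.00191), Mef2d, already described, and Myocd, myocardin (5.81 ± 0.742 to 2.36 ± 0.584, -1.15, adjusted p = 0.00393). The calls of Gata4 and Myocd held under all 19 alternatives tried. The natriuretic peptide gene Nppa was at 231 ± 126 and 154 ± 55.9 (adjusted p = 0.368), and Ctgf, a matrix growth factor, at 23.3 ± 2.91 and 25.3 ± 4.78 (adjusted p = 0.652). In TuD replicates 1, 2 and 3, Acta1 measured 397, 434 and 30.9, against 398 to 508 in the controls (limma adjusted p = 0.257). Nppb measured 702, 553 and 208 there, against 358 to 756 (limma adjusted p = 0.569). Both were thus lowest in TuD replicate 3, where Ctgf was highest, at 28.4.

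**Figure D2:**
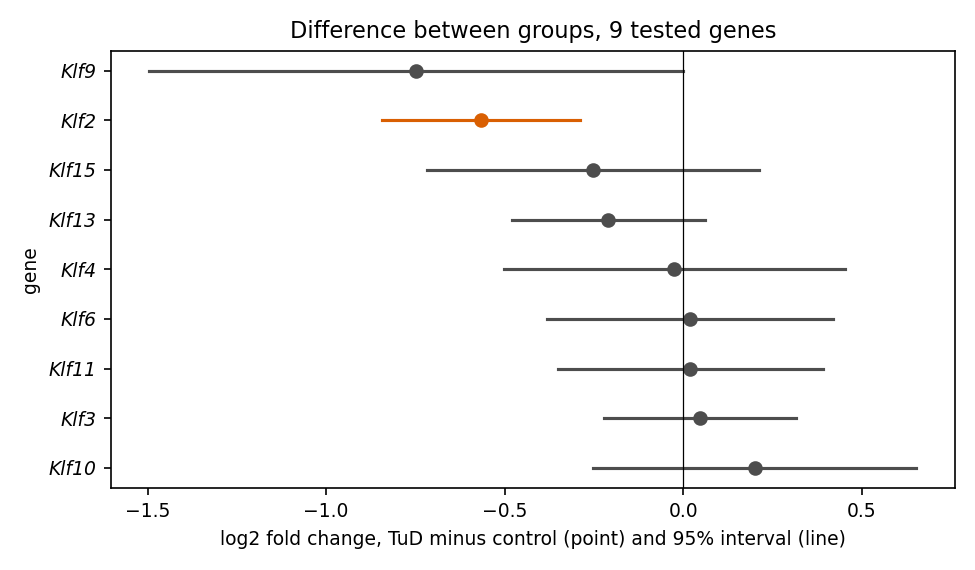
Log2 fold change (TuD minus control) of the 9 tested genes, with points for the limma estimates and lines for the 95% intervals. The interval of Klf2 (orange, adjusted p under 0.05) lies below 0, and those of the other 8 genes include 0.

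Klf9, a glucocorticoid-induced repressor (ENSMUSG00000033863), had the lowest estimate of the 9 genes but a wide interval. It measured 17.4, 12.4 and 13.3 normalised FPKM in control replicates 1, 2 and 3 and 9.18, 4.54 and 13.3 in TuD replicates 1, 2 and 3. TuD replicates 1 and 2 lay below every control, and TuD replicate 3 lay among them. The log2 fold change was -0.75 ± 0.33 (SE), with a 95% interval of -1.495 to 0.00063 (limma adjusted p = 0.117). Without TuD replicate 3 it was -1.07 (adjusted p = 0.0198), and without TuD replicate 2 it was -0.34 (adjusted p = 0.252). With the Y-linked covariate it was -0.09 (adjusted p = 0.875), and after rescaling to TPM -1.15 (adjusted p = 0.0219). The Klf9 libraries of the TuD group differed 2.94-fold from lowest to highest, more than in 97.8% of tested genes.

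Klf13, which shares the glucocorticoid input (ENSMUSG00000052040), measured 8.08, 9.55 and 8.43 in the controls and 8.17, 6.64 and 7.54 in the TuD group. TuD replicates 2 and 3 lay below all controls and TuD replicate 1 lay above 1 of them. The log2 fold change was -0.21, with a 95% interval of -0.48 to 0.06 (limma adjusted p = 0.208), and after rescaling to TPM Klf13 was called lower (-0.59, adjusted p = 0.0132). On the opposite strand Klf13 overlaps Gm27252, a transcript at 2.79 to 7.60 normalised FPKM, and the strand setting of the counting is not given in the sources used here, so reads in shared sequence cannot be told apart.

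Among 13 tested genes of the glucocorticoid receptor and its targets 2 fell, 1 rose and 10 did not pass. Over all tested genes, 14.2% were called lower and 14.8% higher. Per1, a clock gene that the receptor also induces (-0.79, limma adjusted p = 0.0144), and Dusp1, a MAP kinase phosphatase (-1.08, adjusted p = 0.0145), fell, with adjusted p of 0.102 and 0.140 once Y-linked transcripts were a covariate and, for Dusp1, 0.0513 without a filter. Mt1, a metallothionein, rose (+0.73, adjusted p = 0.0175), but not after rescaling to TPM (+0.34, adjusted p = 0.131) or in 7 other alternatives. Fkbp5, a co-chaperone that glucocorticoids induce, measured 4.51 ± 1.35 and 4.82 ± 2.61 (adjusted p = 0.995). The receptor gene Nr3c1 measured 3.73 ± 0.812 and 4.05 ± 0.252 (adjusted p = 0.568).

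Klf10, the TGF-beta-inducible early gene (ENSMUSG00000037465), measured 2.83, 3.73 and 2.39 normalised FPKM over the control libraries and 3.11, 2.86 and 4.59 in the TuD group. Only TuD replicate 3 lay above the controls. Its log2 fold change was 0.20, with a 95% interval of -0.25 to 0.65 (limma adjusted p = 0.469). Its close relative Klf11 stood at 2.12, 2.84 and 1.99 and at 2.56, 1.91 and 2.58, with a 95% interval of -0.35 to 0.39 (adjusted p = 0.934). Among 10 genes of the TGF-beta pathway (ligands, receptors, SMADs and the ubiquitin ligase gene Smurf2), Smad3, a signal transducer, fell (-0.54, adjusted p = 0.0166; covariate-adjusted, 0.0709). Tgfbr1, the type I receptor, measured 0.870, 0.761 and 0.556 normalised FPKM in control replicates 1, 2 and 3 and 1.301, 1.14 and 1.43 in TuD replicates 1, 2 and 3. It passed the filter through the TuD libraries alone, so its call (+0.55, adjusted p = 0.0318) is not read as support, and it ended in 6 of the 15 alternatives that tested the gene. The other 8 did not pass. Over all tested genes, 14.2% were called lower and 14.8% higher. Tgfb1 itself measured 11.2 ± 1.14 and 10.6 ± 2.94 (adjusted p = 0.728).

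Klf6, an early-response activator (ENSMUSG00000000078), measured 11.8, 7.57 and 9.57 normalised FPKM over the control libraries and 11.1, 8.15 and 9.85 over the TuD libraries, so both groups covered nearly the same range. Its 95% interval was -0.38 to 0.42 (limma adjusted p = 0.941). Klf3, a repressor that recruits CtBP (ENSMUSG00000029178), was the steadiest member over the TuD libraries, at 2.41, 2.54 and 2.16 in the controls and 2.52, 2.28 and 2.58 in the TuD group. Its 95% interval, -0.22 to 0.31, was the narrowest of the 9 genes (adjusted p = 0.792). These 95% intervals, not adjusted for the number of genes, still allow differences in either direction that 3 samples per group did not detect.

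Klf7, an activator related to KLF6 (ENSMUSG00000025959, chr1:64029447-64122282), lay below the filter, with only 2 libraries at an FPKM of 1 or more. It measured 1.27, 0.942 and 1.23 normalised FPKM in control replicates 1, 2 and 3 and 0.579, 0.425 and 0.788 in TuD replicates 1, 2 and 3, from 50 to 196 reads per library. All 3 TuD values lay below the controls, with p = 0.1 in that exact permutation test. When genes were tested without a filter, Klf7 had a log2 fold change of -0.60 and did not pass (limma adjusted p = 0.0883).

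The libraries of the TuD group kept a common order across these genes, a pattern chosen after the values were seen. TuD replicate 2 was the lowest of the 3 in all 10 genes, where it was lowest in 35.5% of all tested genes. TuD replicate 3 was the highest in 8 of the 10 (all but Klf6 and Klf13), where it was highest in 36.9% of all tested genes. Both held for 8 of the 10, and for 22.2% of all tested genes. The summed level of the 9 genes other than Klf2 was 90.5, 79.8 and 85.8 normalised FPKM in control replicates 1, 2 and 3 and 76.7, 56.0 and 94.5 in TuD replicates 1, 2 and 3. The controls showed no such order: each of the 3 was the lowest for at least 1 gene and the highest for at least 1 other. The 10 values of a library share that library's preparation and depth, so they are not independent of each other.

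The part of the Y-linked or atrial transcripts of TuD replicate 3 in this order was not tested. Without that library, 2 of the 9 tested KLF genes (Klf2 and Klf9) were called lower, against 15.5% of all genes tested in that setting.

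**Figure D3:**
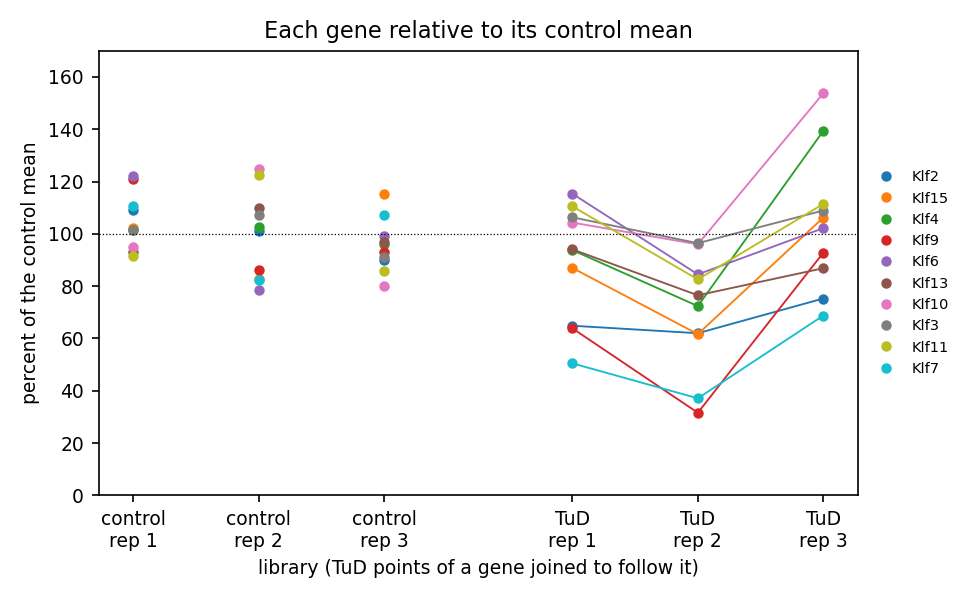
Each gene's level in each library as a percent of its control mean, with the TuD points of a gene joined. All 10 lines have their lowest point at TuD replicate 2, where Klf9 reached 31.6% and Klf7 37.1%, and Klf10 and Klf4 were highest in TuD replicate 3 at 154% and 139%.

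The rest of the family was mostly low. Of the 16 other KLF and SP genes, 4 passed the filter. Klf16, a repressor of the KLF9 and KLF13 subgroup, measured 3.54, 4.88 and 4.90 in the controls and 2.47, 3.29 and 3.32 in the TuD group; the groups did not overlap, but it did not pass (-0.48, limma adjusted p = 0.0539). Sp3, a relative that binds the same GC boxes, was higher, at 2.69 ± 0.502 against 1.70 ± 0.254 (+0.53, adjusted p = 0.0380). The Sp3 call was lost after rescaling to TPM (+0.25, adjusted p = 0.330), without a filter (0.113), with the Y-linked covariate (0.0552) and without any 1 library except TuD replicate 1 (adjusted p of 0.0689 to 0.128). Sp1 and Sp2 did not pass (adjusted p = 0.927 and 0.341). Klf5, known from smooth muscle and fibroblasts, had 0 to 6 reads per library, and Klf12, a repressor, 32 to 144.

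Of 10 cofactors that bind KLF proteins, 0 passed (limma), against 29.1% of all tested genes. At an unadjusted p under 0.05 there were 2, 1 in each direction, and limma-voom called 1 lower. Ctbp1, the co-repressor bound by KLF3, measured 51.3 ± 0.815 and 49.4 ± 1.78 (adjusted p = 0.695), and the co-activator Ep300 2.21 ± 0.101 and 1.54 ± 0.373 (adjusted p = 0.0730). After rescaling to TPM, 6 of the 10 were called lower, as were 40.2% of all tested genes.

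Of 14 tested genes of the circadian clock, to which several KLF genes respond, 9 fell and 5 did not pass (median of the 14 on the log2 scale, -0.81). Over all tested genes, 14.2% were called lower. Bhlhe40, a clock repressor, fell from 15.3 ± 2.31 to 7.97 ± 1.498 normalised FPKM (-0.90, limma adjusted p = 0.00675; 0.0626 with the Y-linked covariate). Ciart (-2.05, adjusted p = 0.00843) and Tef (-0.83, adjusted p = 0.0101) kept their calls under every alternative that tested them. With the Y-linked covariate, without a filter (17 tested) or without control replicate 1, 5 were called lower, and in the last of these 1 was called higher. Without TuD replicate 3, 6 of the 14 were called lower. The hour of collection is not stated, and it cannot be told apart from the groups if it differed between them. KLF2, KLF4, KLF6 and KLF10 resemble immediate early genes in their fast induction. The 15 listed immediate early genes summed to 289, 177 and 154 normalised FPKM in control replicates 1, 2 and 3. In TuD replicates 1, 2 and 3 they summed to 102, 101 and 118. The median log2 fold change of the 10 tested was -0.88 with all libraries and -0.55 without control replicate 1. Leaving out TuD replicate 3, 4 of 10 tested immediate early genes were called lower, against 15.5% of all genes tested in that setting. With all libraries, 3 of the 10 fell and 7 did not pass, against 14.2% of all tested genes called lower. The 3 were Nr4a1 (-2.26, adjusted p = 0.00635; 0.0553 with the Y-linked covariate), Jun (-0.89, adjusted p = 0.0172; 0.0542 and 0.0529 without TuD replicate 1 or 2, 0.0559 without a filter, 0.134 with the covariate) and Fosl2 (-0.86, adjusted p = 0.0250; 0.0588 to 0.0773 without control replicate 2 or TuD replicate 1 or 2, 0.0909 without a filter, 0.0585 with the length trend removed, 0.229 with the covariate).

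**Figure D4:**
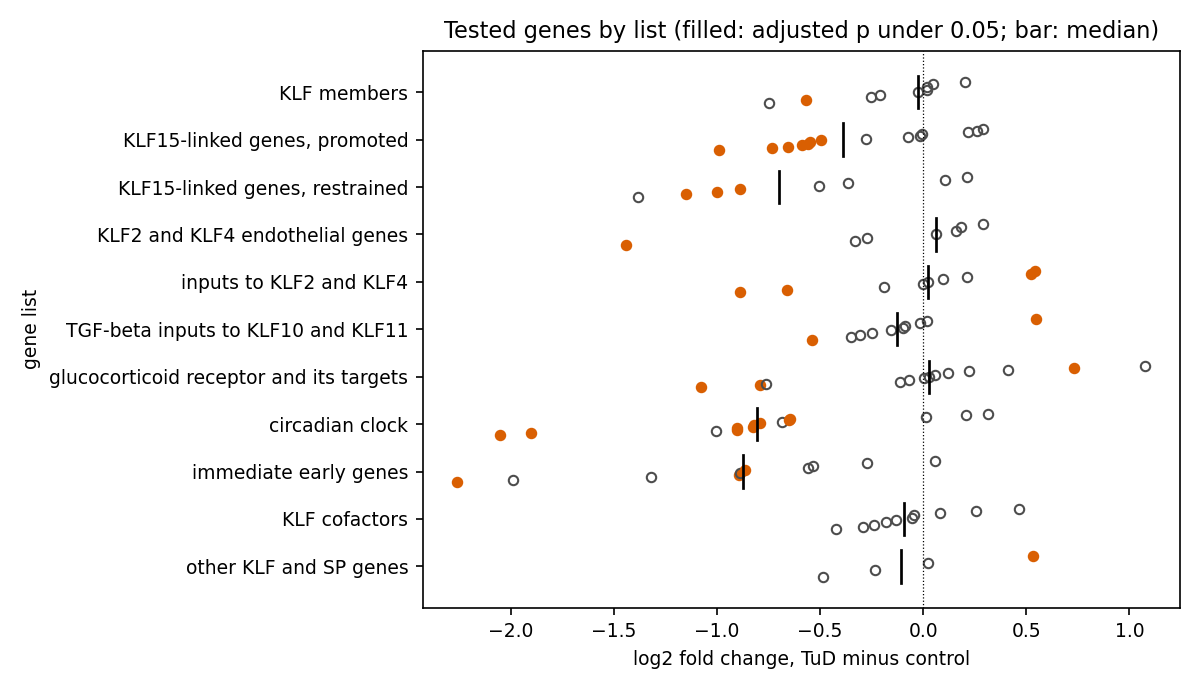
Log2 fold change (TuD minus control) of every tested gene in each list, with filled orange points for an adjusted p under 0.05 and a bar at the median. The KLF genes centre near 0 (median -0.02) with 1 filled point of 9, and the circadian list lies lower (median -0.81) with 9 filled points of 14.

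The E-box CACGTG, which clock factors bind, was found in the promoters of 4 of the 9 KLF genes with a sequence (Klf4, Klf6, Klf11 and Klf15), and in 7.15% of 32851 promoters of the same length. The E-boxes upstream of the start are shown in capitals with 10 bases on each side, read along the gene's strand, at chr4:55532642-55532667 (minus), chr13:5861436-5861461, chr12:24651147-24651172, chr6:90462338-90462363 and chr6:90462394-90462419 (all plus).
Klf4: cccccgccccCACGTGcgcggagttt
Klf6: ccaagctggtCACGTGgggggagaag
Klf11: cggaccaaaaCACGTGccgccgcccg
Klf15, first: cccgaggtccCACGTGgtctgcactt
Klf15, second: gaacccgtctCACGTGcgcatcggag

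The stretch searched for Klf2 held no CACGTG. The part of these motifs in the KLF values was not tested. The GC box GGGCGG, searched on both strands, was found in 8 of the 9 KLF promoters and in 35.7% of all. The KLF promoters had 58.3 to 77.7% GC (median 72.0%), and the median of all promoters was 52.7%, so motifs rich in G and C have more chances to occur in them. CACCC was found in 6 of the 9 and in 57.5% of all, and the cyclic AMP response core TGACG in 6 of the 9 and in 20.8% of all. The serum response element was found in 0 of the 9 and in 1.63% of all. A match is a description of the letters only.

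By likeness of pattern, the tested genes closest to Klf2 over the 6 libraries were Arel1, Bhlhe40 and Extl3, each with a Pearson correlation of 0.997 on the log2 scale. The closest to Klf9 were Hmgb3 (0.997), Tut7 (0.996) and Zfp146 (0.994), to Klf4 Tspyl2 (0.997), Gm31663 (0.992) and Fbxl4 (0.989), and to Klf15 Mia2 (0.992), Ddx42 (0.984) and Gm6505 (0.980). These were the highest correlations among all tested genes over 6 points that share libraries and the difference between the groups, and they are given as descriptions.

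Cell type markers placed the samples in heart muscle: the 6 cardiomyocyte markers summed to 18823 to 19637 normalised FPKM over the control libraries and 17892 to 21690 in the TuD group. For the marker counts that follow, 14.8% of all tested genes were called higher and 14.2% lower. After rescaling to TPM, 40.2% were called lower. Pln rose (+1.06, limma adjusted p = 0.00643; 0.0519 after quantile normalisation), and Tnnt2 and Tnni3 were called higher but lost the call in 4 and 8 of 19 alternatives. After quantile normalisation 0 of the 6 were called higher and 1 lower, and after rescaling to TPM 1 higher and 2 lower. Of 6 fibroblast markers, Col1a2 fell (-0.72, adjusted p = 0.0134; 0.0677 with the length trend removed). Lum and Tcf21 were called higher but lost the call in 6 of 19 and 4 of 18 alternatives, and after rescaling to TPM 0 of the 6 were higher and 2 lower. Of 5 tested smooth muscle and pericyte markers Rgs5 rose (+1.01, adjusted p = 0.00605; covariate-adjusted, 0.0567), and of 3 tested leukocyte markers 0 passed (0 at an unadjusted p under 0.05 and 0 by limma-voom). Of 5 erythroid markers Hba-a1 and Hba-a2, near-identical copies between which the split of reads is uncertain, were called higher. The calls ended in 13 and 7 of 19 alternatives, and after rescaling to TPM or with the length trend removed 0 of the 5 were called. Of 2 tested skeletal muscle markers, Tnni2 measured 0.339 to 0.527 in the controls and 1.12 to 2.01 in the TuD group; it passed the filter through the TuD libraries alone, so its call is not read as support, and it ended with the Y-linked covariate (adjusted p = 0.0552). The other tested skeletal muscle marker did not pass, but alternatives such as limma-voom, quantile normalisation and rescaling to TPM called it lower. The 6 skeletal muscle markers summed to 694 to 805 normalised FPKM in the controls and 569 to 619 in the TuD group. The groups did not overlap, which held for 47.9% of all tested genes. Only 2 of the 6 passed the filter and Tnni2 was at most 2.01, so the other tested marker made up most of this sum. The sum is thus not read as a level of skeletal muscle. The 4 adipocyte markers lay below the filter and summed to 0.0680 to 0.111 in the controls and 0.654 to 2.40 in the TuD group. Their part in the KLF values was not tested. Reads recovered from the FPKM came to 18024041 to 18224978 per control library and 15231319 to 16651455 per TuD library.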

How the data were processed

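RNA from 6 frozen myocardium samples was sequenced after NEBNext Ultra library preparation, per the labels' protocols. The submitters' processing notes name HISAT2 2.0.5, featureCounts 1.5.0-p3 and the mm10 build; annotation release and strand setting are not given in the sources used here. The authors deposited FPKM per gene, with gene length. FPKM times length, in units of the value of 1 read in each library, came out whole, within 0.05 of a read, for 100% of values above 0, which gave the reads per library.

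FPKM was divided by median-of-ratios size factors, and genes with FPKM of at least 1 in at least 3 samples were tested with limma 3.58.1 (R 4.3.3; eBayes with trend, two-sided, Benjamini-Hochberg, threshold 0.05) on log2(normalised FPKM + 0.5), a scale that understates changes of low genes. Groups came from the labels. The KLF genes and lists were chosen with earlier results of these data known; named genes are the KLF genes, the list members with the smallest p and genes of most similar pattern, and others were chosen after their values were seen. Alternatives covered scaling, pseudocount, filter, variance model, limma-voom, thresholds, replicate block, gene length, Y-linked transcripts and leaving out each library. The pipeline was tested on simulated data. The MEF2 motif was added after the data were seen. Protein sequences were not used here. The result of 1 listed gene is not reported here.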

Additional observations from a re-analysis of the deposited data

How the results depend on the processing

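After TPM rescaling the median log2 fold change of all genes was -0.36, with 438 genes higher and 4202 lower; 4 of the 9 KLF genes (Klf2, Klf9, Klf13 and Klf15) were then called lower, against 40.2% of all tested genes, and the estimates of Klf3 (-0.30), Klf6 (-0.36), Klf10 (-0.14) and Klf11 (-0.33) turned negative. Without a filter 886 genes were higher and 964 lower. With the Y-linked covariate 640 were higher, 543 lower and 0 KLF genes lower, and Klf4 (0.47) and Klf15 (0.10) turned positive. At an adjusted p under 0.01 there were 569, 506 and 0. Leaving out 1 library gave 863 to 1659 higher genes, 716 to 1583 lower genes and 1 to 2 lower KLF genes (2 without TuD replicate 3). Without control replicate 2 there were 863 higher and 716 lower genes, without control replicate 3 944 and 848, and without TuD replicate 1 980 lower. The estimates ran from -0.012 to 0.098 for Klf3 (lowest without control replicate 3), -0.27 to 0.20 for Klf4, -0.14 to 0.16 for Klf6 and -0.067 to 0.144 for Klf11. The cause of these changes was not tested. With the replicate number as a block, 1447 genes were higher, 1195 lower and 1 KLF gene lower (Klf2, adjusted p = 0.0304); same-numbered samples deviated together at correlations of 0.0640, 0.0885 and -0.0555, so the numbers were not taken to pair the samples. Klf7, at 50 to 196 reads, and the 3 samples per group limit what could be detected.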
